A study of Laetiporus sulphureus with 6 samples.

Results

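The genes for alcohol dehydrogenases and aldo/keto reductases of *Laetiporus sulphureus* ATCC 52600, a brown-rot basidiomycete, were compared between growth before and on sugarcane bagasse. The members were every gene that the study's annotation of functions lists under one of these classes, whatever its expression. The annotation lists 31 alcohol dehydrogenases and 33 aldo/keto reductases, and 27 of each class, 54 genes of the 10015 in the count table, had values. The alcohol dehydrogenases g5186, g5187, g5559 and g12012 and the aldo/keto reductases g781, g1208, g1926, g7228, g11642 and g11863 were not analysed here.

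Alcohol dehydrogenases interconvert alcohols and the corresponding aldehydes or ketones with NAD(H) or NADP(H) as the cofactor, and in fungi they act in fermentation, in growth on alcohols and in the turnover of aromatic aldehydes and alcohols. Aldo/keto reductases are mostly monomeric enzymes with a barrel fold that reduce aldehydes and ketones, sugars among them, with NADPH. In fungi, members of this family include the xylose reductases that open the pathway of pentose use.

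The domains did not match the class name in every case. Of the 31 listed alcohol dehydrogenases, 30 carry PF08240, the GroES-like domain of medium-chain zinc-type dehydrogenases, which other reductases of that superfamily share, and g6380 carries PF00465, the domain of iron-containing alcohol dehydrogenases. Of the 33 listed aldo/keto reductases, 31 carry PF00248, the domain of the family, whereas g6238 and g2998 carry PF00106, a short-chain dehydrogenase domain. The substrate of no member is known from these data.

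RNA was sequenced from 3 cultures of pre-inoculum mycelium (T0) and 3 cultures of mycelium grown on in natura sugarcane bagasse (BIN), all of the 1 strain, for which the labels name no genetic change. The T0 cultures had been shaken at 180 rpm and 30 °C for 7 days in a liquid medium. BIN mycelium of the same kind was washed and moved for 24 h, at the same temperature and shaking, to 100 mL of mineral medium with 1 g of bagasse. The bagasse, the change of medium and the added hours came together, so their effects cannot be told apart, and the labels do not say whether a T0 and a BIN culture with the same number shared a pre-inoculum.

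The libraries held 9541028 to 15331728 counts, and each gene of the table had at least 1.01 CPM (counts divided by the library total and scaled to 1000000) in every library, so a gene silent in either condition is not among those tested. Replicates correlated at a Pearson r of 0.979 to 0.992 in T0 and 0.993 to 0.995 in BIN on log2 CPM. CPM values were scaled by edgeR's TMM factors and serve to compare 1 gene between conditions, and TPM values, which are divided by gene length, serve to compare genes. Across all genes the log2-fold change rose with relative gene length (Spearman rho 0.335, a description across genes), and the median TPM was 23.2 in T0 and 31.9 in BIN, so a rise of up to that size in TPM is no rise relative to the other genes.

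The alcohol dehydrogenases moved in both directions, and most aldo/keto reductases changed by less than the threshold on the fold. A call required that the edgeR adjusted p did not exceed 0.05 and that the log2-fold change reached 1 in size. By this rule 7 alcohol dehydrogenases were upregulated on bagasse, 7 were downregulated and 13 were not called. That is 25.9% in each direction, beside 11.3% of all genes called higher and 14.5% called lower. Among the aldo/keto reductases 3 were upregulated (11.1%), 1 was downregulated (3.7%) and 23 were not called. The 4 called aldo/keto reductases all carry the family's own domain.

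The spread differed more than the centre. The log2-fold changes of the alcohol dehydrogenases ran from -3.35 to 3.88, with a median of -0.05 and quartiles of -0.92 and 0.95. Those of the aldo/keto reductases ran from -1.26 to 2.95, with a median of -0.24 and quartiles of -0.70 and 0.44. Over all genes the median was 0.00 and the quartiles were -0.60 and 0.54, and the SD across genes was 1.67 for the alcohol dehydrogenases, 0.97 for the aldo/keto reductases and 1.11 for all genes. In 6 of 27 alcohol dehydrogenases and 1 of 27 aldo/keto reductases the called change was at least 2 on the log2 scale. Over all genes this held for 715 of 10015.

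**Figure D1:**
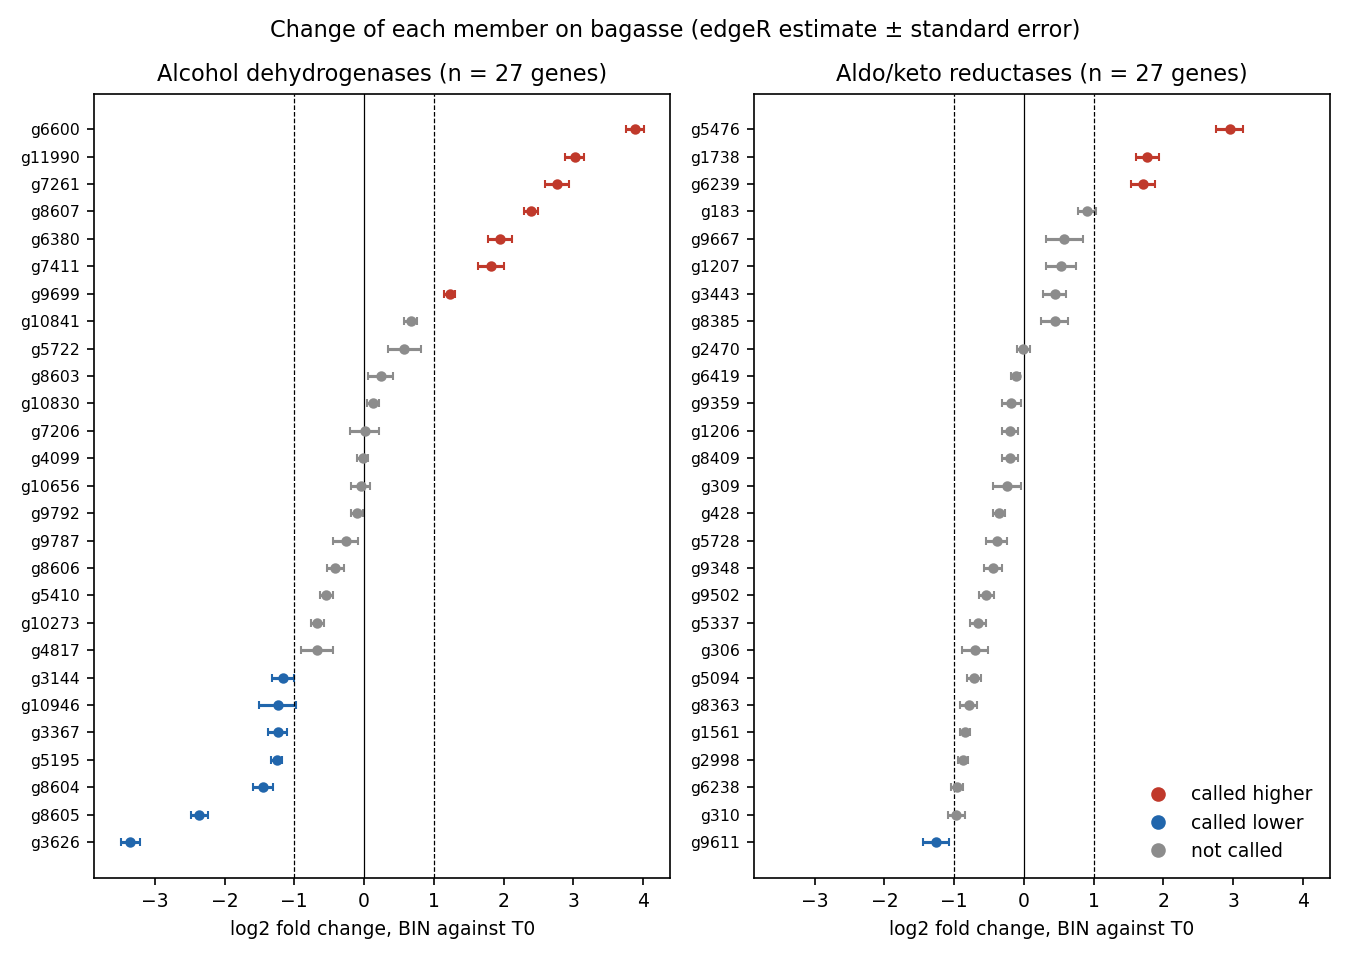
Log2-fold change of BIN against T0 (horizontal axis) for the 27 alcohol dehydrogenases and the 27 aldo/keto reductases, ordered by size, as edgeR estimates with bars of 1 standard error from 3 libraries per group and dashed lines at a size of 1. The alcohol dehydrogenases reach from -3.35 (g3626) to 3.88 (g6600), while 23 of the 27 aldo/keto reductases are not called.

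Small falls were common among the aldo/keto reductases. Without a threshold on the fold, 13 of them (48.1%) were lower on bagasse and 5 (18.5%) higher at an edgeR adjusted p of at most 0.05, beside 35.9% and 35.2% of all genes. For the alcohol dehydrogenases the counts were 11 lower (40.7%) and 9 higher (33.3%). The aldo/keto reductases were short genes, with a median relative length of 0.862 beside 1 for all genes. With the gene length trend removed, their median log2-fold change moved from -0.24 to -0.19, beside 0.00 and -0.03 for all genes. That of g428 moved from -0.36 to -0.19. On TMM-normalized CPM, each BIN library was below each T0 library for 14 aldo/keto reductases and 12 alcohol dehydrogenases, beside 38% of all genes. Each BIN library was above each T0 library for 5 and 8, beside 37.6% of all genes. The aldo/keto reductases without overlap on this scale were thus mostly below T0, at 51.9% of the class. Of these 14, 1 gene, g9611, also passed the fold threshold. In TPM the order was reversed for g428 (141 to 150.7 in T0, 151.6 to 161.5 in BIN), g6419 and g8409. The same held for the alcohol dehydrogenase g9792.

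By level, the alcohol dehydrogenases were the more abundant class in both conditions. Their summed level was 4567.6 ± 229.3 TPM in T0 and 11403.8 ± 898.4 TPM in BIN (mean ± SD, n = 3), or 0.457% and 1.14% of all TPM. The aldo/keto reductases summed to 1053.4 ± 61 TPM in T0 and 1202.4 ± 28.7 TPM in BIN, or 0.105% and 0.12%. The ratio of the sums was 4.27, 4.24 and 4.51 in T0 replicates 1, 2 and 3 and 8.95, 8.92 and 10.6 in BIN replicates 1, 2 and 3, so the conditions did not overlap.

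The rise of the alcohol dehydrogenase sum came mostly from g7411. The sum was 2.5 times as high in BIN as in T0, and without g7411 it was 1.39 times as high, at 3091.6 ± 332.5 TPM and 4296.7 ± 115.8 TPM. On TMM-normalized CPM the same ratios were 1.91 and 1.1. The TPM rise without g7411 was 0.48 on the log2 scale, near the median change of 0.40 over all genes on log2(TPM + 1). For the aldo/keto reductases the sum was 1.14 times as high in BIN in TPM. In TMM-normalized CPM it was 0.823 times as high, falling from 1399.8 ± 19.2 to 1152 ± 17.8 CPM. Their TPM rise, 0.19 on the log2 scale, was below the median change of all genes, so neither scale showed a rise relative to the other genes. No test was run on the sums.

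**Figure D2:**
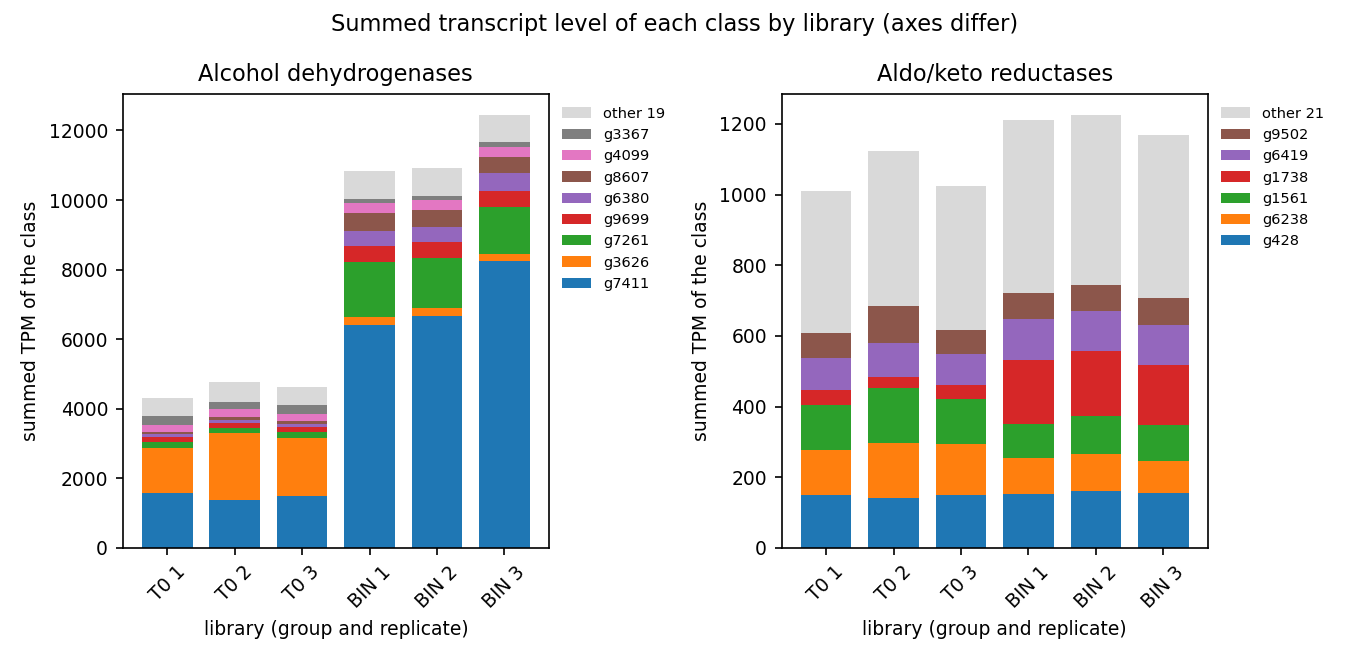
Summed TPM of each class in the 6 libraries (bars, with unequal vertical axes), divided into the members among the 5 most abundant in T0 or in BIN and the other members in grey. In the alcohol dehydrogenases g3626 shrinks and g7411 grows to 62.3% of the mean sum in BIN, whereas no aldo/keto reductase exceeds 14.8% of the mean sum in either condition.

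The alcohol dehydrogenase sum was shared mainly by g3626 and g7411 in T0 and was led by g7411 alone in BIN. In T0 the sum was led by g3626 with 35.8 ± 5.43% and g7411 with 32.4 ± 3.96%, and 9 genes made up 90% of it. In BIN g7411 alone held 62.1 ± 3.65%, followed by g7261 and g8607, and 7 genes made up 90%. The 5 most abundant members in T0 were g3626, g7411, g3367, g4099 and g7261, and in BIN they were g7411, g7261, g8607, g6380 and g9699.

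For g7411 the share of the alcohol dehydrogenase TPM was 36.6%, 28.7% and 32.1% in T0 replicates 1, 2 and 3 and 59.2%, 61% and 66.2% in BIN replicates 1, 2 and 3. The share of g3626 was 30.2%, 41% and 36.4% in T0 and 2.03%, 2.1% and 1.62% in BIN. Neither share overlapped between conditions. The TPM ratio of g7411 to g3626 was 1.21, 0.699 and 0.884 in T0, where neither gene led in every library, and 29.2, 29.1 and 40.9 in BIN. Among all genes ranked by mean TPM, g7411 stood at rank 77 in T0 and 6 in BIN, and g3626 went from rank 60 to rank 763.

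The aldo/keto reductases had no such dominant gene. The most abundant was g428 in T0 with 14% of the class and g1738 in BIN with 14.8%, and 14 genes in T0 and 16 in BIN were needed for 90% of the sum. The 5 most abundant in T0 (g428, g6238, g1561, g6419 and g9502) held 56.8%, and those in BIN (g1738, g428, g6419, g1561 and g6238) held 54%. The entry of g1738 in place of g9502 was the one exchange. The median member had 17.4 TPM in T0 and 28.8 TPM in BIN, beside 36.2 and 49.6 TPM for the alcohol dehydrogenases.

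**Figure D3:**
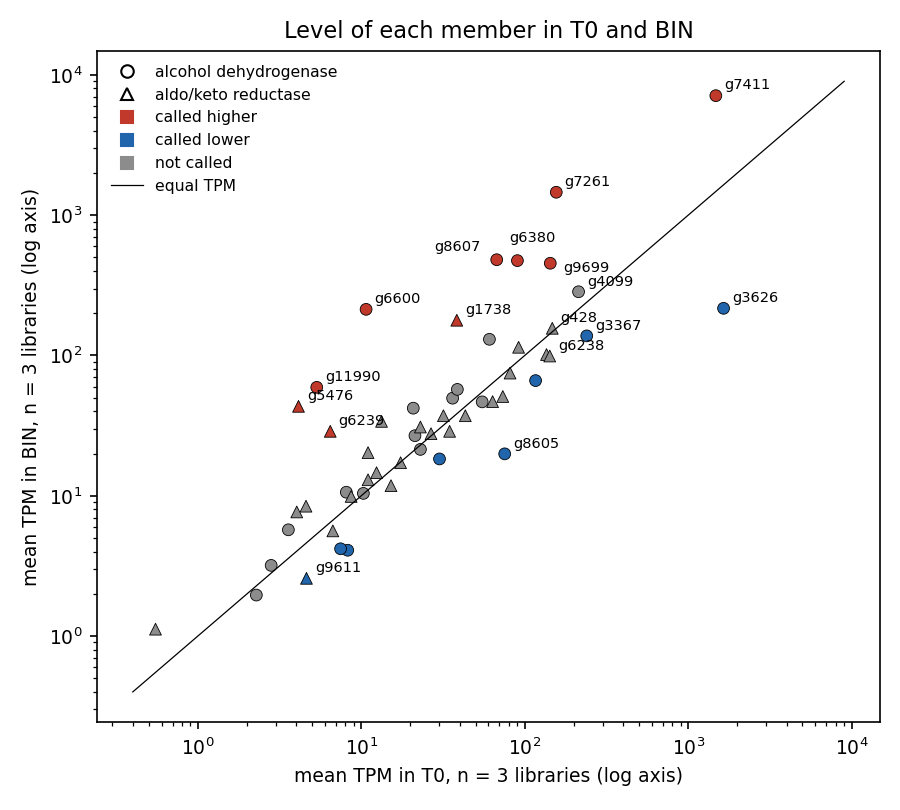
Mean TPM of each member in T0 (horizontal) and BIN (vertical) on log axes, n = 3 libraries each, with circles for alcohol dehydrogenases, triangles for aldo/keto reductases and a line at equal TPM. The alcohol dehydrogenase g7411 lies farthest up at 7107.2 TPM in BIN and g3626 farthest below the line, from 1645.5 to 216.8 TPM, and the aldo/keto reductases lie between 0.551 and 178.3 TPM.

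The alcohol dehydrogenase with the largest rise was g6600, a member with the zinc-type domain. It had 14.6, 12.5 and 15.4 CPM in T0 replicates 1, 2 and 3 and 240.4, 198.8 and 186.2 CPM in BIN replicates 1, 2 and 3. Each BIN library was far above the highest T0 library. The log2-fold change was 3.88 (SE 0.13, edgeR adjusted p = 3.71e-08), a 14.7-fold rise, and in TPM the gene moved from 10.7 ± 0.524 to 213.2 ± 28.2. By TPM in BIN it held rank 8 in its class, behind members that had all started higher.

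The next largest rise, that of g11990, was from a low level. Its libraries held 7.52, 8.74 and 10.6 CPM in T0 and 70.8, 66.1 and 84.1 CPM in BIN, with no overlap. The log2-fold change was 3.02 (SE 0.14, edgeR adjusted p = 1.73e-07), and at 59.3 TPM in BIN this gene remained a minor part of the class.

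The gene g7261 combined a large rise with a high level. It had 287.8, 203.5 and 298 CPM in T0 and 1948.5, 1761.7 and 1689 CPM in BIN, and the lowest BIN library was well above the highest T0 library. The log2-fold change was 2.77 (SE 0.17, edgeR adjusted p = 7.86e-07). By mean TPM it was the second alcohol dehydrogenase in BIN, at 1456.6 ± 105.8, and moved from rank 993 to rank 71 among all genes.

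The most abundant member, g7411, rose from 2346.4, 1743.6 and 2152.9 CPM in T0 to 6697.7, 6770.9 and 8612 CPM in BIN. BIN replicate 3 was the highest of the 6 libraries, and the conditions did not overlap. The log2-fold change was 1.82 (SE 0.18, edgeR adjusted p = 1.59e-05).

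The iron-type member g6380 had 166.2, 104.5 and 131.1 CPM in T0 and 486.7, 471.6 and 588.2 CPM in BIN. All 3 BIN libraries lay above all 3 T0 libraries, and the log2-fold change was 1.95 (SE 0.17, edgeR adjusted p = 1.16e-05). The smallest called rise was that of g9699, a zinc-type member, from 152.7, 149.9 and 157.6 CPM to 368.1, 344.4 and 365.8 CPM. Its replicates were close to one another in both conditions, and its log2-fold change was 1.23 (SE 0.08, edgeR adjusted p = 1.35e-06).

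**Figure D4:**
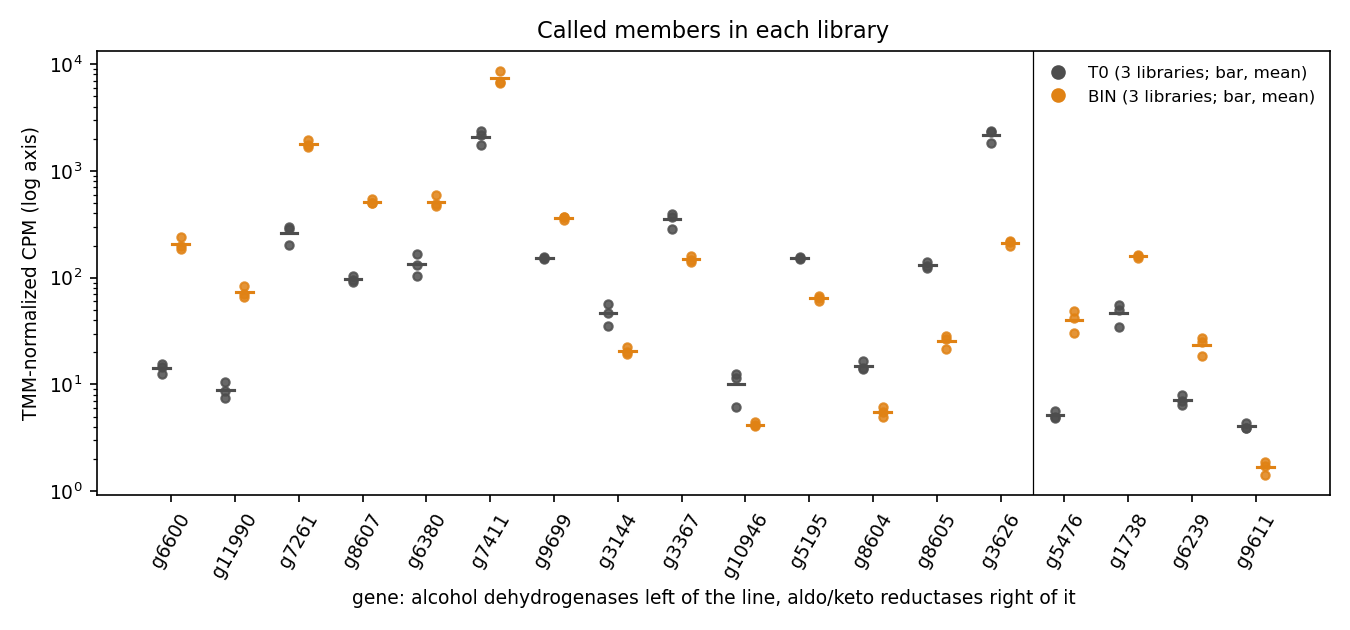
TMM-normalized CPM (log axis) of the 14 called alcohol dehydrogenases and the 4 called aldo/keto reductases in each library, with T0 in grey, BIN in orange and a bar at the mean of 3 libraries. In none of the 18 genes do the T0 and BIN points overlap, and the 7 upregulated alcohol dehydrogenases span levels from about that of g11990 to that of g7411.

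Among the downregulated alcohol dehydrogenases g3626 stood out by its level. It had 1829.8, 2356.7 and 2301.6 CPM in T0 and 216.6, 219.7 and 199.1 CPM in BIN. The BIN libraries were all far below the lowest T0 library, and the log2-fold change was -3.35 (SE 0.14, edgeR adjusted p = 1.08e-07). Even so, its 216.8 ± 13.9 TPM in BIN exceeded the 213.2 ± 28.2 TPM reached by g6600 by less than the SD.

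The second largest fall was that of g8605, from 122.4, 129.3 and 141.1 CPM in T0 to 21.3, 28.4 and 26.9 CPM in BIN. The conditions were far apart, and the log2-fold change was -2.36 (SE 0.12, edgeR adjusted p = 2.31e-07). These 2 falls were also called on TPM.

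The other 5 falls were smaller and depended on the scale, and some also on the test. The third most abundant member in T0, g3367, went from 371.7, 287.5 and 396.2 CPM to 146.2, 140.6 and 159.3 CPM (log2-fold change -1.24, SE 0.13, edgeR adjusted p = 2.21e-05). The gene g5195 went from 157.2, 148.5 and 152.6 CPM to 60.3, 64.2 and 67.9 CPM (log2-fold change -1.25, SE 0.08, edgeR adjusted p = 7.78e-07). In both genes the highest BIN library was far below the lowest T0 library.

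At lower levels, g8604 had 14, 16.6 and 14.4 CPM in T0 and 6.12, 5.52 and 4.92 CPM in BIN (log2-fold change -1.45, SE 0.14, edgeR adjusted p = 1.47e-05). The gene g3144 had 56.7, 35.6 and 46.7 CPM in T0 and 20.2, 19.1 and 22.6 CPM in BIN (log2-fold change -1.16, SE 0.16, edgeR adjusted p = 0.000213). The gene g10946 had 11.4, 12.5 and 6.17 CPM in T0 and 4.05, 4.41 and 4.13 CPM in BIN (log2-fold change -1.24, SE 0.26, edgeR adjusted p = 0.00237). None overlapped in CPM, but T0 replicate 3 of g10946 lay nearer to BIN than the other T0 libraries did. In TPM that library (4.39) fell within the BIN values of g10946 (4.01 to 4.48). With glmTreat, which tests against the fold threshold, g3367, g3144 and g10946 were not called. On log2(TPM + 1), where the median of all genes rose by 0.40, limma called none of these 5 genes, and the split of the alcohol dehydrogenases was 9 higher, with g5722 and g10841 added, and 2 lower in place of 7 and 7.

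Of the 13 alcohol dehydrogenases that were not called, g4099 was the most abundant. It had 318.9, 325.3 and 317.6 CPM in T0 and 323.9, 310 and 315.3 CPM in BIN, so the conditions overlapped, and its log2-fold change was -0.02 (SE 0.08, edgeR adjusted p = 0.844). The largest rise below the fold threshold was that of g10841, from 79.8, 82.2 and 81.5 CPM to 133.4, 138.3 and 114.8 CPM, without overlap (log2-fold change 0.67, SE 0.09). The log2-fold changes of these 13 genes lay between -0.67 and 0.67.

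The alcohol dehydrogenases g8603 to g8607 have consecutive gene numbers, and their changes differed. How the gene numbers were assigned is not given in the sources used here, and no scaffold positions were used, so whether these genes lie side by side in the genome is not known. In this run g8604 and g8605 fell (log2-fold changes of -1.45 and -2.36), g8607 rose (2.40), and g8603 (0.24, edgeR adjusted p = 0.267) and g8606 (-0.41, edgeR adjusted p = 0.0154) were not called. How reads on near-identical copies were counted is not given in the sources used here, so values within this run are uncertain in that respect.

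The rise of g8607 was from 91.3, 95.3 and 104.7 CPM in T0 to 541.3, 499.2 and 499.3 CPM in BIN, with an SE of 0.10 (edgeR adjusted p = 8.05e-08). The ratio of g8607 to g8605 in CPM was 0.746, 0.737 and 0.742 in T0 and 25.5, 17.6 and 18.5 in BIN. It was thus nearly constant among T0 libraries and below every BIN value. Among the 5 genes g8605 had the highest mean TPM in T0 (75.4 ± 8.05), ahead of g8607 (67.4 ± 6.83), with a TPM ratio of g8607 to g8605 of 0.898, 0.888 and 0.893 in the T0 libraries, and g8607 had by far the highest in BIN (481.3 ± 20.4). The other runs of alcohol dehydrogenases were g5186 and g5187, not analysed here, and g9787 with g9792, with log2-fold changes of -0.26 and -0.10 that were not called.

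**Figure D5:**
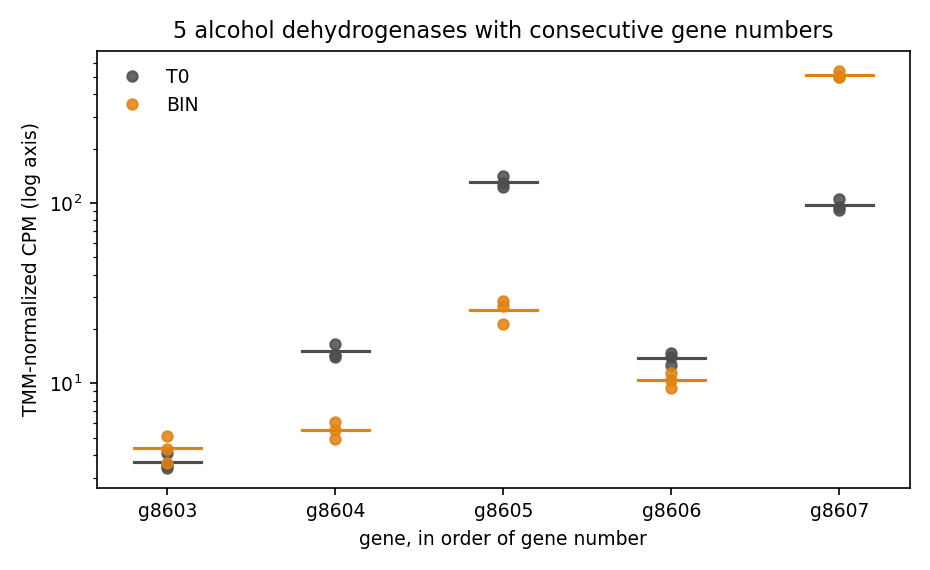
TMM-normalized CPM (log axis) of the 5 alcohol dehydrogenases with consecutive gene numbers, with 3 T0 libraries in grey, 3 BIN libraries in orange and bars at the means. The points of g8604 and g8605 are lower in BIN, those of g8607 are higher at 499.2 to 541.3 CPM, and g8603 overlaps.

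Among the aldo/keto reductases g5476 had the largest rise. It had 5.01, 4.86 and 5.68 CPM in T0 and 48.8, 30.4 and 41.6 CPM in BIN. The conditions did not overlap, though BIN replicate 2 was lower than the other BIN libraries, and the log2-fold change was 2.95 (SE 0.19, edgeR adjusted p = 1.33e-06), a 7.73-fold rise. Its level in BIN was 43.4 ± 9.47 TPM, so that the aldo/keto reductase with the largest change was not among the 5 most abundant.

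The gene g1738 was upregulated to the head of the class. It had 55.6, 34.5 and 50.1 CPM in T0 and 162, 160.5 and 152.6 CPM in BIN, and no T0 library reached the lowest of BIN. The log2-fold change was 1.77 (SE 0.16, edgeR adjusted p = 1.72e-05), and its share of the class TPM went from 3.67% to 14.8%. Its 178.3 ± 7.34 TPM in BIN was higher than the 156.2 ± 5.01 TPM of g428, which stood first in T0.

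The third rise was that of g6239, from 6.38, 7.05 and 8.04 CPM to 27.3, 25 and 18.4 CPM (log2-fold change 1.71, SE 0.17, edgeR adjusted p = 2.07e-05). The downregulated gene g9611 went from 4.33, 3.95 and 3.95 CPM to 1.74, 1.42 and 1.88 CPM (log2-fold change -1.26, SE 0.18, edgeR adjusted p = 0.000211). Neither overlapped between conditions, and g9611 was near the lowest levels of the table. These are the 2 members annotated with the molecular function of a prostaglandin D2 ketoreductase, an activity named from mammalian enzymes, and they moved in opposite directions. On log2(TPM + 1), and with glmTreat, g9611 was not called.

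The gene numbers of g6239 and g6238 are neighbours, and g6238 is one of the 2 members with the short-chain dehydrogenase domain. It had 174.8, 185.6 and 194.5 CPM in T0 and 99, 98.1 and 89 CPM in BIN, without overlap, and a log2-fold change of -0.96 (SE 0.08, edgeR adjusted p = 5.92e-06), just short of the threshold. The other one, g2998, had 73.6, 80.4 and 75.2 CPM in T0 and 42.1, 40.7 and 42.6 CPM in BIN, a log2-fold change of -0.87 (SE 0.07). Both lay entirely below T0 in BIN, and neither was called, so neither is among the counts of called aldo/keto reductases.

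Several abundant aldo/keto reductases lay just short of the threshold on the lower side. The gene g310 had 114.8, 83.1 and 96.9 CPM in T0 and 52.5, 49.9 and 48.1 CPM in BIN, with a log2-fold change of -0.97 (SE 0.12, edgeR adjusted p = 6.31e-05). It was called lower without T0 replicate 2 (-1.08) or without BIN replicate 1, and g6238 was called lower without T0 replicate 1. The gene g1561 had 196.5, 203.6 and 188 CPM in T0 and 104.4, 112.7 and 108.3 CPM in BIN, with a log2-fold change of -0.85 (SE 0.07). On the higher side g183 had 18.8, 14.7 and 17 CPM in T0 and 33.2, 27.9 and 33.5 CPM in BIN, a log2-fold change of 0.91 (SE 0.13, edgeR adjusted p = 0.00015). It passed the threshold when scaled by library size only (1.06), after the gene length trend was taken out (1.03) and on log2(TPM + 1) (1.29). The median of all genes in these settings was 0.13, -0.03 and 0.40, beside 0.00 in the main fit. The log2-fold changes of the 23 aldo/keto reductases that were not called lay between -0.97 and 0.91.

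Among the 5 most abundant aldo/keto reductases in T0, the changes of g428, g6419 and g9502 were smaller than those of g6238 and g1561. The gene g428 had 178.9, 143.8 and 174 CPM in T0 and 126.1, 130.9 and 129.7 CPM in BIN (log2-fold change -0.36, SE 0.09, edgeR adjusted p = 0.00676), without overlap. In TPM each BIN library of g428 was above each T0 library. The gene g6419 was close to level, with a log2-fold change of -0.12 (SE 0.07, edgeR adjusted p = 0.141), and g9502 had one of -0.54 (SE 0.11, edgeR adjusted p = 0.00177). Of the runs, g306, g309 and g310 had log2-fold changes of -0.70, -0.24 and -0.97, and g1206 and g1207 had -0.20 and 0.53. Of the 13 tested members annotated with the aldo-keto reductase (NADP) function, 1 was called, g1738, which was higher (7.69%, beside 11.3% of all genes called higher and 14.5% called lower), and their median was -0.36.

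Other oxidoreductases of the same annotation were read beside these classes. A further 4 genes with the iron-type alcohol dehydrogenase domain are listed among other redox enzymes, and in all 4 each BIN library was above each T0 library. Of these g3677 was called higher (25% of the 4, beside 11.3% of all genes). It had 72.1, 66 and 70.4 CPM in T0, 328.8, 309.5 and 381 CPM in BIN and a log2-fold change of 2.29. The other members, g4451, g6653 and g4503, had log2-fold changes of 0.87, 0.76 and 0.65, so with g6380 all 5 genes of this domain were higher in every BIN library than in any T0 library, beside 37.6% of all genes. The margin was narrow for g4503, with 78.2 CPM in T0 replicate 1 and 79.3 CPM in BIN replicate 1.

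Of the 36 tested short-chain dehydrogenases under other redox enzymes 4 were called higher (11.1%) and 8 lower (22.2%), beside 11.3% and 14.5% of all genes, and their median was -0.09. The largest called rise there was that of g11676 (log2-fold change 2.34) and the largest fall that of g2142 (-1.98). The aldehyde dehydrogenase domain occurred in g9427, which had 127.4, 125.8 and 131.8 CPM in T0 and 177.2, 182.5 and 184.1 CPM in BIN and a log2-fold change of 0.50 that did not reach the fold threshold. Of 5 D-isomer specific 2-hydroxyacid dehydrogenases, g5203 (4.68) and g5434 (2.38) rose and g1286 (-1.49) and g1300 (-1.17) fell, and g9997 (-0.17) was not called. That is 40% in each direction, beside 11.3% of all genes called higher and 14.5% called lower.

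Alcohol oxidases, which make aldehydes and peroxide, glyoxal oxidases, which oxidize aldehydes and also release peroxide, and catalases, which remove peroxide, were also measured. Of 2 tested alcohol oxidases of family AA3_3, g10793 rose, from 1.71, 2.11 and 1.45 CPM in T0 to 72.3, 87 and 249.1 CPM in BIN, with BIN replicate 3 far above the other 2 and a log2-fold change of 6.26 (SE 0.77, edgeR adjusted p = 0.00109). The other, g1439, was not called (0.55). Of the 3 glyoxal oxidases of family AA5_1, g8037 rose (1.21) and g6800 (0.86) and the abundant g10078 (-0.20) were not called. Among the 4 catalases, g9489 rose (1.62), g6487 fell (-1.30), and g840 (0.43) and g9613 (0.35) were not called. The share called higher was 50% of alcohol oxidases, 33.3% of glyoxal oxidases and 25% of catalases, beside 11.3% of all genes. Of the catalases 25% were called lower, beside 14.5% of all genes.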

How the data were processed

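RNA from 6 cultures, 3 per condition, was sequenced by the authors from mRNA libraries. They filtered reads with Trimmomatic 0.32, removed rRNA with SortMeRNA and mapped to their own assembly with TopHat2. The authors deposited raw counts per gene and TPM values, and the counting program is not given in the sources used here. Class, domain and function terms came from the study's annotation. Samples were grouped by the labels.

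The counts were compared, BIN against T0, in edgeR 4.0.16 under R 4.3.3 (TMM, robust quasi-likelihood test, no replicate block, Benjamini-Hochberg over 10015 genes), and calls required an adjusted p not above 0.05 and a log2 fold change of 1 or more in size. The SE is the size of the log2 fold change over the root of F. filterByExpr removed 0 genes, and 3 against 3 libraries allow no permutation p under 0.1. On simulated counts edgeR recovered 99% of changes of 1.5 and 100% of changes of 3 on the log2 scale. No smaller change and no length trend was simulated, so this does not bear on calls near the fold threshold of 1.

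Genes were named if called, if among the 5 most abundant of a class in either condition, in a run of gene numbers at most 5 apart, within 0.8 to 1.2 in size of log2 fold change, or with another domain; from other lists, the largest called rise and fall and every gene of lists with at most 4 genes. g10841, g5722 and the other genes of the 5-gene hydroxyacid dehydrogenase list were chosen after their values were seen. Members and lists were chosen with earlier results of these data known. Alternatives were DESeq2 1.42.0, RLE, library size alone, no filter, at least 10 CPM, glmTreat, no fold threshold, limma 3.58.1 on log2(TPM + 1) and log2(TPM + 0.1), the length trend removed (lowess span 0.3), a replicate block and each library left out. No genome of the strain was used: 0 gene numbers matched the 13840 genes of another strain's list, so no sequence or position is given.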

Additional observations from a re-analysis of the deposited data

How the results depend on the processing

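The 7 upregulated alcohol dehydrogenases, g3626, g8605 and the 3 upregulated aldo/keto reductases kept their calls in all 17 alternatives, and no call reversed. Downregulated alcohol dehydrogenases numbered 4 with glmTreat, 11 without a fold threshold and 2 on either TPM scale. Downregulated aldo/keto reductases numbered 0 with glmTreat, with at least 10 CPM (22 tested per class) and on either TPM scale, and 13 without a fold threshold, which gave 5 upregulated ones. Leaving out 1 library gave 1 to 2 downregulated aldo/keto reductases (2 when T0 replicate 1 or 2, or BIN replicate 1, was absent), and 3 upregulated. It gave 7 alcohol dehydrogenases in each direction, medians of -0.11 to -0.04 for alcohol dehydrogenases and -0.33 to -0.30 for aldo/keto reductases, log2 ratios of the sums of 1.25 to 1.35 and 0.16 to 0.24, shares of g7411 of 30.4 to 34.3% in T0 and 60.1 to 63.6% in BIN, and of g428 of 13.6 to 14.8% and 12.8 to 13.2%. The medians were 0.34 and 0.18 on log2(TPM + 1) and 0.37 and 0.19 on log2(TPM + 0.1), where the median of all genes was 0.40 and 0.43. The aldo/keto median was -0.10 with library size alone, beside 0.13 for all genes. With the length trend removed the medians were 0.02 and -0.19, beside -0.03 for all genes. The log2 ratio of the alcohol dehydrogenase sums was 0.93 in CPM, and without g7411 it was 0.48 in TPM and 0.14 in CPM. That of the aldo/keto reductases was -0.28 in CPM. In CPM g428 held 11.8% in T0 and 11.2% in BIN. Of the sum without its most abundant member, g3626 held 52.9% in T0 and 5.05% in BIN and g6238 held 15.7% and 9.46%. Deviations from the group means correlated at 0.03, 0.01 and -0.10 between same-numbered libraries, which does not settle whether these cultures shared a pre-inoculum. A replicate block gave the same 7 and 7 alcohol dehydrogenases and 3 and 1 aldo/keto reductases. Calls near the fold threshold and levels near 1 CPM are the least certain.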

Other observations

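Genes with numbers close to those of called members were read for their direction. Within 3 gene numbers of the 10 upregulated members lay 49 tested genes of other classes, of which 11 were called higher (22.4%) and 7 lower (14.3%), beside 11.3% and 14.5% of all genes. Near the 8 downregulated members lay 34, of which 5 were called higher (14.7%) and 4 lower (11.8%). The iron-type alcohol dehydrogenase g6380 lay near the cytochrome P450 genes g6377 and g6378, which rose by 2.29 and 2.02 on the log2 scale. The abundant g7411 lay near g7414, which rose by 2.47, and g7412, which rose by 1.07. The downregulated g3626 and g3144 lay beside g3627 (-1.48) and g3143 (-2.91), both downregulated. Others went the opposite way: g3369 (2.01) and g3370 (1.29) were upregulated near the downregulated g3367. Near the upregulated g11990, g11988 (-1.61) and g11993 (-1.16) were downregulated. The upregulated g6600 lay beside g6599, which was downregulated (-1.76), and none of the 5 tested neighbours of g5476 was called. These neighbours were chosen after their values were seen, and whether close gene numbers mean close positions in the genome was not known.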
